A study of Mus musculus with 8 samples.

Results

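The Wnt ligands, the Frizzled receptors with their LRP co-receptors, the Axin and TCF/LEF proteins and a set of feedback inhibitors were described in lung endothelial cells (EC) of mice given a TIE1-blocking antibody. Members were chosen by gene symbol, with earlier results of these data known: every Wnt and Frizzled gene, Lrp5, Lrp6, Ctnnb1, Axin1, Axin2, Lef1, Tcf7, Tcf7l1, Tcf7l2, Apcdd1, Nkd1, Rnf43, Znrf3, Dkk1, Dkk2 and Dkk3. This named 45 genes, of which 42 were measured, each by 1 probe set, among 19505 genes with a symbol on the array. Ctnnb1 (beta-catenin), Tcf7 and Rnf43 were not matched by symbol and are not analysed here.

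Wnt proteins are lipid-modified secreted ligands that bind a Frizzled receptor, and in the canonical branch they also engage LRP5 or LRP6. The bound receptor recruits Dishevelled and Axin, beta-catenin escapes the destruction complex and, with TCF/LEF factors in the nucleus, switches on target genes, several of which encode inhibitors that feed back on the pathway. In endothelium the pathway is best known for its part in the retina and brain, where Norrin, a ligand unrelated to the Wnts, signals through Fzd4, Lrp5 and Tspan12, and Wnt7a and Wnt7b signal with the help of Reck and Adgra2.

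C57BL/6N mice aged 8 weeks carried subcutaneous tumors of LLC (Lewis lung carcinoma) cells and received either control IgG (n = 4) or the anti-TIE1 antibody AB-Tie1-39 (n = 4), both at 40 mg/kg, 2 times per week. On day 14 lung EC were sorted as CD31+ CD45- LYVE1- PDPN- Ter119- DAPI-, and the RNA of each mouse was hybridized to 1 Clariom S array. All 8 mice bore a tumor, so no group without one enters the comparison. The antibody field of 3 of the 4 anti-TIE1 samples names TIE2, TIE3 or TIE4, and the groups follow the sample titles. Values are log2 of the deposited normalized intensity, an arbitrary brightness, and a difference is anti-TIE1 minus IgG on that log2 scale. Brightness depends on the probes as well as on the RNA, so levels of different genes are not ranked against each other.

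The label protocols speak of liver tissue in one place and of lung elsewhere. The 7 lung EC markers and the 8 general endothelial markers measured were above background on every array, whereas 0 of 6 liver sinusoidal and 0 of 5 hepatocyte markers were. Of the sinusoidal markers, Gata4 was above background on 7 arrays, Oit3 on 1 and the other 4 on none, and all 5 hepatocyte markers were on none. Above background means brighter than the brightest of 23 background control probe sets on the same array, which lay between 7.81 and 7.91. Tie1 itself, the antibody's target, measured 11.06 ± 0.20 (SD, n = 4) with IgG and 11.00 ± 0.11 (SD, n = 4) with anti-TIE1. Markers of some other cell types differed in level between the treatments, none at an adjusted p under 0.05. The mean level of 7 alveolar type 2 markers lay between 8.20 and 8.88 on the IgG arrays and between 8.72 and 9.24 on the anti-TIE1 arrays, with 7 of 7 means higher. That of 5 alveolar type 1 markers lay between 8.27 and 8.91 and between 8.63 and 9.25, with 3 of 5 higher. That of 4 airway markers lay between 6.94 and 7.21 and between 7.18 and 7.58, with 4 of 4 higher. The mean of 7 lymphatic markers lay between 9.14 and 9.51 and between 9.02 and 9.09, with 5 of 7 lower, and that of 5 platelet markers between 8.83 and 9.40 and between 8.77 and 8.97, with 4 of 5 lower. Although the sort took LYVE1- PDPN- cells, Lyve1 measured 11.96 ± 0.15 with IgG and 12.00 ± 0.06 with anti-TIE1 (SD, n = 4), and Lyve1 and Pdpn were above background on all 8 arrays. In sorted bulk cells, fewer cells of a type and less RNA per cell cannot be told apart, and the part of these cell types in the values below was not tested.

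No Wnt pathway member passed an adjusted p under 0.05 (limma, Benjamini-Hochberg over 22202 probe sets), and 0% of all probe sets did. The smallest adjusted p was 0.679 among the members and 0.344 over the array. Without adjustment, 1 member was higher at p under 0.05 (Wnt8a), where 2.17% of all probe sets were, and 2 were lower (Wnt1 and Wnt2), where 3.15% were. The groups did not overlap in 1 member with higher values (Wnt8a; 1.38% of all probe sets) and in 1 with lower values (Wnt2; 1.78%). Of the 42 members 23 had a higher and 19 a lower mean with anti-TIE1, and their median difference was 0.02 against -0.0044 over all probe sets. A difference of at least 1.2-fold was measured for 2 members, Wnt8a and Axin1, and for 4.27% of all probe sets.

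For 40 of 42 members the 95% interval of the difference in brightness lay within a 1.5-fold change either way, the exceptions being Wnt8a and Axin1. Over the 8 arrays a member spanned a median of 0.41 log2, against 0.413 for all probe sets. Of the members 12 were above background on all 8 arrays (28.6%, against 34.2% of all probe sets), 25 on no array and 5 on some. For genes, bright and dim refer to the position against the background controls and rank no RNA levels. For the 25 a narrow interval describes brightness at the level of the background controls and does not bound a change in RNA. For 11 of the 12 bright members the interval lay within a 1.3-fold change either way, and Wnt9b was the exception.

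**Figure D1:**
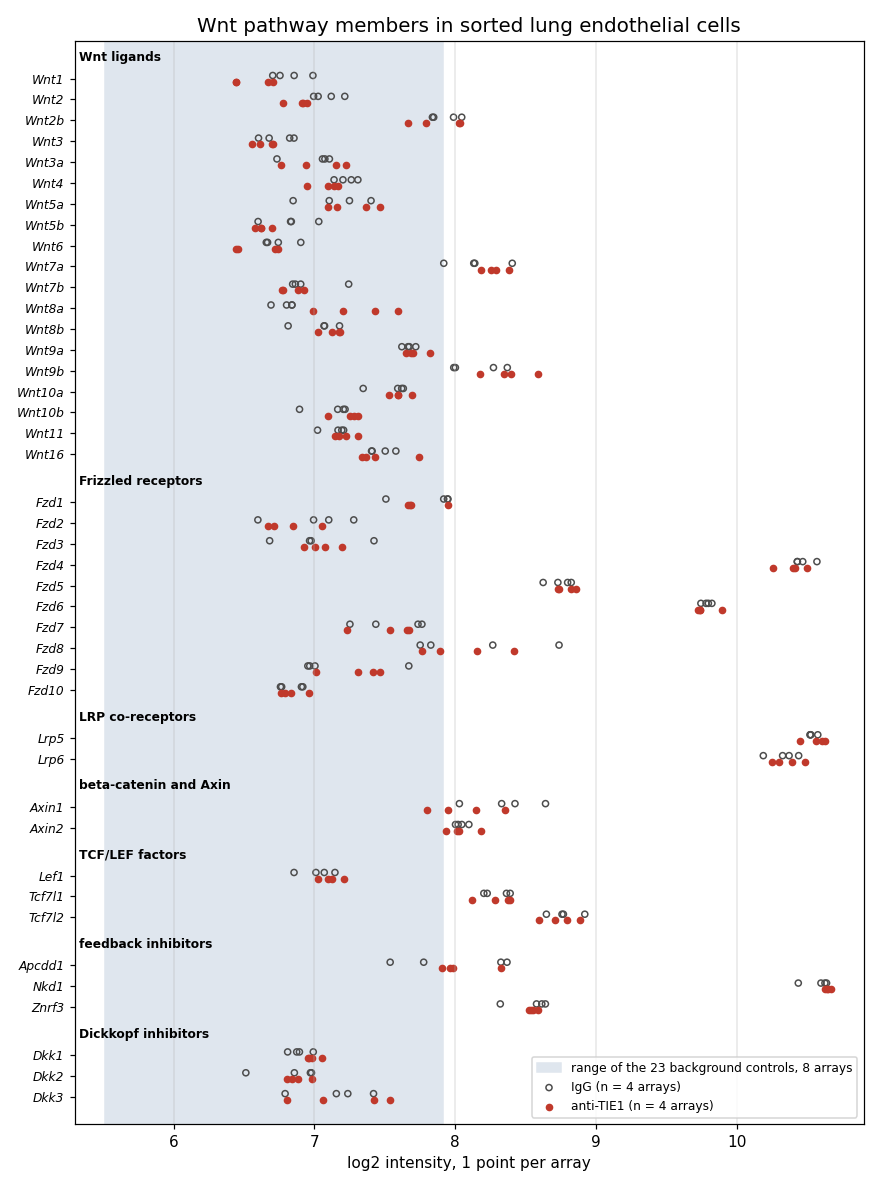
Log2 intensity of each of the 42 members (rows, grouped by role), 1 point per array, with open grey circles for the 4 IgG and filled red circles for the 4 anti-TIE1 arrays; the shaded band spans the 23 background controls over the 8 arrays, from 5.51 to 7.91. Fzd4, Fzd6, Lrp5, Lrp6 and Nkd1 stand clear of the band, most Wnt ligands and all 3 Dickkopf genes lie inside it, and the points of the treatments intermix in nearly every row.

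**Figure D2:**
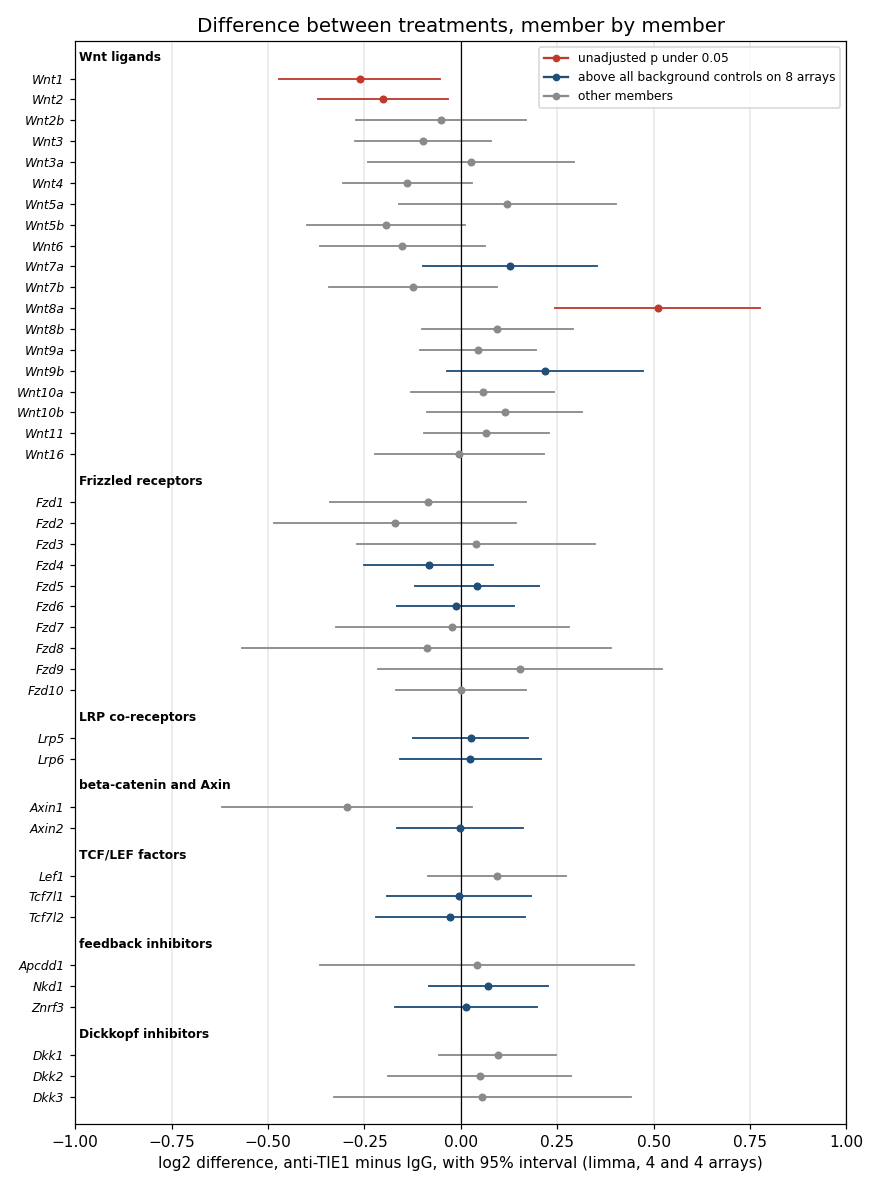
Log2 difference, anti-TIE1 minus IgG, of each member with its 95% interval from limma (4 and 4 arrays). Red marks the 3 members at an unadjusted p under 0.05, blue the 12 members above background on all 8 arrays and grey the others; the 12 blue intervals all include 0.

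Most ligands were dim. Of the 19 Wnt genes 16 were above background on no array, Wnt2b was on 4, and Wnt7a and Wnt9b were on all 8. Wnt8a, a ligand of the early embryo, measured 6.69, 6.84, 6.84 and 6.80 on IgG arrays 1 to 4 and 7.59, 7.43, 6.99 and 7.20 on anti-TIE1 arrays 1 to 4. Every anti-TIE1 array was brighter than every IgG array, with arrays 1 and 2 the brightest. The difference was 0.51 ± 0.12 (SE), with a 95% interval of 0.24 to 0.78, an adjusted p of 0.679 by limma and an exact two-sided permutation p of 0.0286, the smallest that 4 against 4 arrays allow. All 8 values were below the brightest background control, and the difference was 0.33 on the 4 arrays with low and 0.69 on the 4 with high hybridization controls, a set of spike-ins whose mean lay between 10.40 and 10.51 on the former and between 10.79 and 11.05 on the latter.

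Wnt1, the founding member of the family and a signal of the developing midbrain, measured 6.99, 6.75, 6.70 and 6.86 on IgG arrays 1 to 4 and 6.71, 6.44, 6.44 and 6.67 on anti-TIE1 arrays 1 to 4. The groups only just overlapped, through anti-TIE1 array 1 and IgG array 3. The difference was -0.26 ± 0.094 (SE; limma, adjusted p = 0.897; exact permutation p = 0.0571). Wnt2, a mesenchymal ligand of the developing lung, measured 6.99, 7.03, 7.22 and 7.12 with IgG and 6.94, 6.78, 6.91 and 6.92 with anti-TIE1 on arrays 1 to 4. Every anti-TIE1 array was dimmer than every IgG array, by a narrow margin between anti-TIE1 array 1 and IgG array 1. The difference was -0.20 ± 0.076 (SE; limma, adjusted p = 0.912; exact permutation p = 0.0286). Both genes stayed below the brightest background control on all 8 arrays. Of 6 fibroblast markers 5 were above background on no array, and the mean of these markers lay between 7.21 and 7.45 with IgG and between 7.20 and 7.40 with anti-TIE1. The mean of 8 mural markers lay between 7.32 and 7.44 with IgG and between 7.42 and 7.50 with anti-TIE1, with 6 of 8 higher. The part of these cell types in the Wnt2 difference was not tested. The Wnt1 difference lost its unadjusted p under 0.05 without IgG array 1 (where it was -0.21), anti-TIE1 array 2 (-0.22) or anti-TIE1 array 3 (-0.22). That of Wnt2 lost it without IgG array 3 or anti-TIE1 array 2 (-0.16 in both cases).

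**Figure D3:**
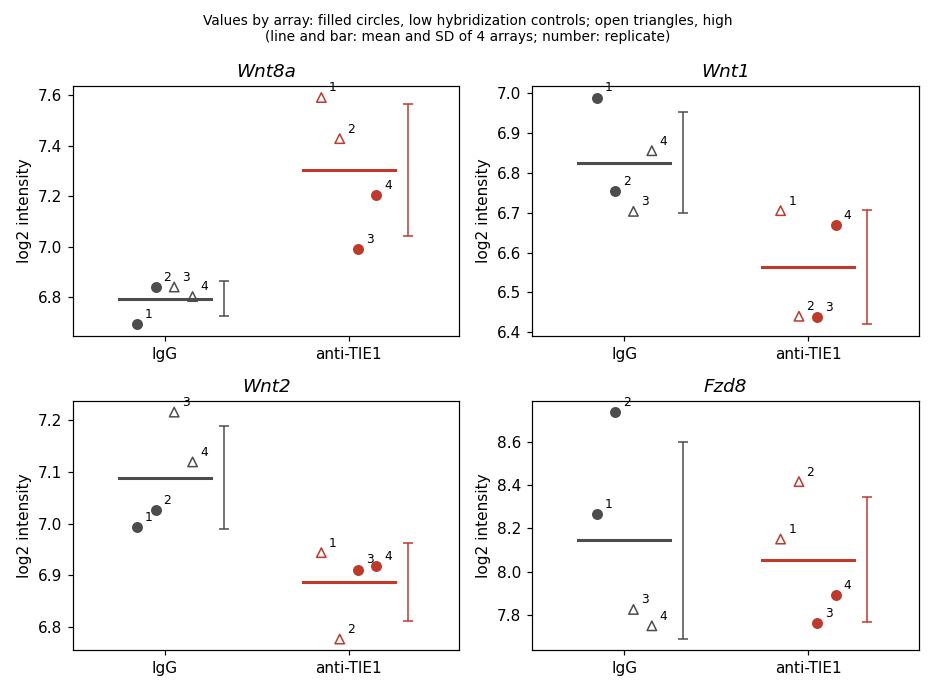
Log2 intensity of Wnt8a, Wnt1, Wnt2 and Fzd8 on each array, with the mean (line) and SD (bar) of 4 arrays per group; filled circles are arrays with low and open triangles arrays with high hybridization controls, the number beside a point is the replicate, and each panel has its own axis, which does not start at 0. The Wnt8a and Wnt2 groups do not overlap, the Wnt1 groups overlap in 1 array each, and in Fzd8 the order of the treatments is opposite for circles and triangles.

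The promoters of Wnt2 and Wnt1 are shown because these are the ligands with lower means at an unadjusted p under 0.05. Each window, from RefSeq on GRCm38.p6, runs from 250 bases before to 50 bases after the start of transcription, 5′ to 3′. Both were searched for the string CTTTGA, a form of the TCF/LEF core, on either strand (TCAAAG on the other). Neither window holds it, so all letters are lower case. Other forms of the core, such as CTTTGT, were not searched for in any window. Wnt2 lies at chr6:18030396-18030695 on the minus strand and Wnt1 at chr15:98789607-98789906 on the plus strand.
Wnt2: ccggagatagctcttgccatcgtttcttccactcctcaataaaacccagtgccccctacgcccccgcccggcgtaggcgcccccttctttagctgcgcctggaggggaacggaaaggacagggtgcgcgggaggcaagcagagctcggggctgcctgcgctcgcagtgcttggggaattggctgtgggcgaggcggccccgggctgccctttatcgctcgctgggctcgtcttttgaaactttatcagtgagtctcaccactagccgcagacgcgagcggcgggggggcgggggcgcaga
Wnt1: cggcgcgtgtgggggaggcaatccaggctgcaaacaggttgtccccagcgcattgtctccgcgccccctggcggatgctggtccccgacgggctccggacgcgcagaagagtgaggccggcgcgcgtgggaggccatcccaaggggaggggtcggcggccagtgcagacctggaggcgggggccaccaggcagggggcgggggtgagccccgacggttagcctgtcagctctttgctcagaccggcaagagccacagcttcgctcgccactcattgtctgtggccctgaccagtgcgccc

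Wnt7a and Wnt9b were the ligands above background throughout. Wnt9b, a ligand of kidney tubule formation that liver endothelium also makes, measured 8.16 ± 0.19 (SD, n = 4) with IgG and 8.38 ± 0.17 with anti-TIE1. Its values ran from 7.99 to 8.37 and from 8.18 to 8.59, so the groups overlapped, and the difference was 0.22 ± 0.11 (SE; limma, adjusted p = 0.952). Wnt7a, a ligand of brain vessel growth, measured 8.15 ± 0.20 and 8.28 ± 0.08 (difference 0.13 ± 0.10, SE; limma, adjusted p = 0.966), and the spread of its IgG arrays, 7.92 to 8.40, enclosed all 4 anti-TIE1 values. Its relative Wnt7b, made by lung epithelium, was below background, at 6.96 ± 0.19 and 6.84 ± 0.08. Wnt2b, which acts with Wnt2 in the lung bud, lay around the background limit at 7.93 ± 0.10 and 7.88 ± 0.18.

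The remaining ligands were dim on every array and their groups overlapped. The ligands known mainly for beta-catenin-independent signaling, Wnt5a, Wnt5b and Wnt11, differed by 0.12, -0.19 and 0.07. Wnt5b spread from 6.60 to 7.03 with IgG and from 6.58 to 6.70 with anti-TIE1. Wnt4, which acts in kidney and gonad formation, differed by -0.14 and Wnt6 by -0.15. The classical activators of beta-catenin Wnt3, Wnt3a and Wnt10b differed by -0.10, 0.03 and 0.11. Wnt8b, Wnt9a, Wnt10a and Wnt16 differed by between -0.004 and 0.10. Among these 12 ligands and Wnt7b, the smallest adjusted p was 0.949 (Wnt5b, limma).

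Receptors split into bright and dim genes. Fzd4, the receptor of Norrin as well as of Wnts, measured 10.47, 10.43, 10.43 and 10.57 on IgG arrays 1 to 4 and 10.25, 10.41, 10.40 and 10.50 on anti-TIE1 arrays 1 to 4. The groups overlapped and anti-TIE1 array 1 was the dimmest. The difference was -0.08, with a 95% interval of -0.25 to 0.08. Fzd6, a receptor of planar cell polarity in skin and hair, measured 9.80, 9.74, 9.78 and 9.82 with IgG and 9.74, 9.90, 9.74 and 9.72 with anti-TIE1. Only anti-TIE1 array 2 stood off, above the rest, and the 8 values spanned 0.173, the narrowest range of any member. Its difference was -0.01, with an interval of -0.16 to 0.14. Fzd5, a receptor needed for yolk sac vessels in the mouse, measured 8.73, 8.80, 8.62 and 8.82 with IgG and 8.82, 8.74, 8.86 and 8.73 with anti-TIE1, which overlapped, and differed by 0.04 with an interval of -0.12 to 0.20.

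Fzd8, a high-affinity Wnt receptor, had the widest range of any member, 0.986. It measured 8.27, 8.74, 7.83 and 7.75 on IgG arrays 1 to 4 and 8.15, 8.42, 7.76 and 7.89 on anti-TIE1 arrays 1 to 4. Arrays 1 and 2 were brighter than arrays 3 and 4 in each group. The difference over all arrays was -0.09 ± 0.22 (SE; limma, adjusted p = 0.990). Among the arrays with low hybridization controls, IgG 1 and 2 against anti-TIE1 3 and 4, it was -0.67, and among those with high controls, anti-TIE1 1 and 2 against IgG 3 and 4, it was 0.50. The opposite signs restate that arrays 1 and 2 were the brighter ones in each group and are no separate result.

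The other Frizzled genes were dim. Fzd1 lay above background on 4 arrays, at 7.83 ± 0.22 (SD, n = 4) with IgG and 7.74 ± 0.14 with anti-TIE1. Fzd2, Fzd3, Fzd7, Fzd9 and Fzd10 were above background on no array, and their differences ran from -0.17 (Fzd2) to 0.15 (Fzd9), with the groups overlapping in each. Fzd9 depended on 1 array: IgG array 3 measured 7.67 and the other IgG arrays 6.95 to 7.00, against 7.01 to 7.47 with anti-TIE1. Without that array the difference was 0.33 and reached an unadjusted p under 0.05 by limma, where 2.14% of all probe sets were higher at that limit. That of Fzd2 was -0.30 without IgG array 1, the dimmest of its 8 arrays, and then reached it too, where 2.73% were lower. Without IgG array 4, the brightest, the Fzd2 difference was -0.08. Neither gene reached that limit with any other single array left out.

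The co-receptors were bright and steady. Lrp5, which pairs with Fzd4 for Norrin, measured 10.53, 10.58, 10.52 and 10.52 on IgG arrays 1 to 4 and 10.60, 10.63, 10.45 and 10.56 on anti-TIE1 arrays 1 to 4. Its IgG values all fell within the spread of the anti-TIE1 values, and the difference was 0.03 with a 95% interval of -0.12 to 0.17. Lrp6, the main co-receptor of canonical Wnts, measured 10.37, 10.19, 10.44 and 10.33 with IgG and 10.48, 10.39, 10.25 and 10.30 with anti-TIE1. The groups overlapped and the difference was 0.02, with an interval of -0.16 to 0.21. At the listed Norrin partners, Tspan12, the tetraspanin of the Fzd4 complex, was above background on all arrays at 10.06 ± 0.12 and 9.97 ± 0.03 (SD, n = 4), while Ndp, the Norrin gene, was above background on none, at 6.64 ± 0.05 and 6.51 ± 0.07 (difference -0.13 ± 0.068, SE; limma, adjusted p = 0.955). Of the WNT7 co-receptors, Adgra2 was above background on all arrays (9.64 ± 0.18 and 9.78 ± 0.14) and Reck on none (7.48 ± 0.21 and 7.51 ± 0.05).

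Inside the cell, Axin1, the scaffold of the beta-catenin destruction complex, showed the lowest difference of all members. It measured 8.36 ± 0.25 (SD, n = 4) with IgG, from 8.03 to 8.64, and 8.06 ± 0.24 with anti-TIE1, from 7.80 to 8.35. The groups overlapped and the difference was -0.29 ± 0.15 (SE), with a 95% interval of -0.62 to 0.03 and an adjusted p of 0.952 (limma). It reached an unadjusted p under 0.05 by limma without IgG array 4 (-0.40) or without anti-TIE1 array 2 (-0.39). In these settings 3.34% and 2.96% of all probe sets were lower at that limit. With any other single array left out, Axin1 did not reach the limit. Its difference was -0.20 without IgG array 3 and -0.21 without anti-TIE1 array 3. Axin2, its paralog and the most widely used target gene of beta-catenin, measured 8.10, 8.05, 8.00 and 8.02 on IgG arrays 1 to 4 and 7.94, 8.03, 8.01 and 8.18 on anti-TIE1 arrays 1 to 4. The anti-TIE1 values enclosed the IgG values. The difference was -0.002, with an interval of -0.16 to 0.16.

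The TCF/LEF factors bind target genes with beta-catenin. Tcf7l2 measured 8.92, 8.77, 8.76 and 8.65 with IgG and 8.60, 8.89, 8.71 and 8.79 with anti-TIE1 on arrays 1 to 4. The groups overlapped, and the difference was -0.03 with an interval of -0.22 to 0.17. Tcf7l1, which acts mainly as a repressor, measured 8.30 ± 0.09 and 8.29 ± 0.12 (SD, n = 4). Lef1, a factor that is also a target and marks brain endothelium with active signaling, was below background on all arrays. It measured 7.07, 7.01, 7.15 and 6.85 with IgG and 7.03, 7.12, 7.10 and 7.21 with anti-TIE1. IgG array 4 was the dimmest and the groups overlapped, with a difference of 0.09 and an interval of -0.09 to 0.27.

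Among the feedback inhibitors, Nkd1, a Dishevelled-binding antagonist induced by the pathway, was bright. It measured 10.44, 10.60, 10.63 and 10.64 on IgG arrays 1 to 4 and 10.64, 10.67, 10.65 and 10.63 on anti-TIE1 arrays 1 to 4. IgG array 1 was the dimmest, and the anti-TIE1 arrays lay among or just above the other IgG arrays. The difference was 0.07, with an interval of -0.08 to 0.23 and an adjusted limma p of 0.976. Apcdd1, a membrane inhibitor that binds Wnt and LRP5, measured 8.32, 7.78, 8.37 and 7.54 with IgG and 7.99, 8.32, 7.90 and 7.96 with anti-TIE1. The IgG arrays were spread widely and enclosed every anti-TIE1 value, and the difference of 0.04 carries an interval of -0.36 to 0.45. Znrf3, a ubiquitin ligase that removes Frizzled from the cell surface, measured 8.54 ± 0.15 and 8.55 ± 0.03 (SD, n = 4). The Dickkopf genes encode secreted proteins, of which Dkk1 and Dkk2 bind LRP5 and LRP6 and Dkk3 is a divergent relative. All 3 were above background on no array, with differences of 0.10 (Dkk1), 0.05 (Dkk2) and 0.06 (Dkk3).

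Of the 42 members 28 had promoter windows in the RefSeq table, 35 windows in all. The string CTTTGA, on either strand, stood in 5 of these windows (14.3%), against 5257 of all 32851 windows (16%) of 300 bases. These were single windows of Lef1, Dkk1, Fzd1, Wnt5b and Wnt11. Lef1 and Dkk1 are shown as known targets and because each window holds this string at 2 places, printed in capitals. The windows of Axin2 and Nkd1, also targets of the pathway, do not hold this string. Other forms of the TCF/LEF core are left in lower case. In Dkk1 (chr19:30549447-30549746, minus strand) the matches begin at -174 and -117 from the start of transcription, and in Lef1 (chr3:131156044-131156343, plus strand, 1 of 4 windows of the gene) at -180 and -120. This Lef1 window is shown because it holds the string. The other windows of the gene, which begin at chr3:131110047, 131110073 and 131112541, do not hold it. A match is a stretch of letters, and binding was not measured.
Dkk1: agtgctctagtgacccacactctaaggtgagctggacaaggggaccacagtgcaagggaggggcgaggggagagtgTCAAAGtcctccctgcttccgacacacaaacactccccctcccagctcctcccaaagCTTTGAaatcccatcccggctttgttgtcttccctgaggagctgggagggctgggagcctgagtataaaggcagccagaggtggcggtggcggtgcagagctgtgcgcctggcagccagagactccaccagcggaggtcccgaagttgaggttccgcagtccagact
Lef1: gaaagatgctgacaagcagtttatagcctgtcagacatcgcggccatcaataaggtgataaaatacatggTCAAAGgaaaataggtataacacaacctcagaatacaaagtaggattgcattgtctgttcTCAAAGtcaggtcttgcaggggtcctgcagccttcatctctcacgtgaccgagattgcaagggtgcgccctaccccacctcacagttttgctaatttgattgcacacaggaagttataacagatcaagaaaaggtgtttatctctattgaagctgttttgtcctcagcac
Both genes with these paired strings were below background on every array, with differences of 0.10 and 0.09.

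Around the members, 76 further genes of the pathway were measured in 8 lists written from textbook knowledge, with earlier results of these data known. None passed an adjusted p under 0.05. Without adjustment 2 were higher and 2 lower (2.17% and 3.15% of all probe sets), close to the background shares at this number of genes. Their median difference was -0.0045, and 37 were above background on all arrays and 27 on none. For secretion, Wls, which carries Wnts to the surface, and Porcn, which attaches their lipid, were both above background, with differences of 0.14 and -0.29. R-spondins and their LGR receptors, which protect Frizzled from Znrf3, had 0 of 7 genes above background on all arrays, with Rspo2 and Lgr4 at differences of 0.07 and -0.11. Of 13 secreted antagonists and partners, 1 was above background on all arrays, Kremen1, a Dickkopf receptor, at 8.93 ± 0.05 and 9.06 ± 0.07 (SD, n = 4; difference 0.13). Wif1, which binds Wnts outside the cell, differed by -0.19.

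The cytoplasmic and nuclear machinery was bright, with 12 of 14 destruction complex and Dishevelled genes and 10 of 13 nuclear partners above background on all arrays. Gsk3a, a kinase that marks beta-catenin for destruction, measured 9.66, 9.73, 9.77 and 9.79 on IgG arrays 1 to 4 and 9.93, 9.74, 10.16 and 10.16 on anti-TIE1 arrays 1 to 4. Anti-TIE1 array 2 lay among the IgG arrays and the others above them. The difference was 0.26 ± 0.099 (SE; limma, adjusted p = 0.923). It was 0.46 on the arrays with low and 0.055 on those with high hybridization controls. Ctbp1, a corepressor, measured 10.29, 10.32, 10.09 and 10.42 with IgG and 10.47, 10.52, 10.64 and 10.62 with anti-TIE1. Every anti-TIE1 array was brighter than every IgG array, and the difference was 0.28 ± 0.085 (SE; limma, adjusted p = 0.843). Btrc, the F-box protein that recognizes marked beta-catenin, and Bcl9l, a coactivator, differed by -0.16 and 0.19, neither at an unadjusted p under 0.05. The Gsk3a difference lost its unadjusted p under 0.05 without IgG array 1 (0.23), anti-TIE1 array 3 (0.21) or anti-TIE1 array 4 (0.20).

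Of 13 non-canonical genes 0 reached an unadjusted p under 0.05, and Daam1, a formin downstream of Dishevelled, and Ror1, a receptor of Wnt5a, differed by 0.21 and 0.25. Of 12 other target genes, 10 had a lower mean with anti-TIE1, where 48.3% of all probe sets had a higher one. The median difference was -0.077, with Lgr5 at -0.004 among the lower ones. Of the 12, 4 were above background on all arrays and 4 on none. Among the members, the 3 measured feedback inhibitors all had a higher mean, with a median difference of 0.04. Cd44, a hyaluronan receptor, measured 7.67, 8.32, 7.48 and 7.35 on IgG arrays 1 to 4 and 6.88, 7.27, 7.20 and 7.38 on anti-TIE1 arrays 1 to 4. The groups overlapped through anti-TIE1 array 4 and IgG array 4, and the difference was -0.53 ± 0.19 (SE; limma, adjusted p = 0.897). Myc, a growth regulator, measured 7.42, 7.84, 7.90 and 7.37 with IgG and 7.13, 7.27, 7.42 and 7.44 with anti-TIE1. The groups overlapped and the difference was -0.31 ± 0.13 (SE; limma, adjusted p = 0.931). Cd44 lost its unadjusted p under 0.05 without anti-TIE1 array 1 (-0.43). Myc lost it without IgG array 2 (-0.24), IgG array 3 (-0.22), anti-TIE1 array 1 (-0.25) or anti-TIE1 array 2 (-0.30), and with quantile normalization (-0.30) or median centring (-0.31). Cd44 and Myc were each above background on 1 array, and both respond to many pathways besides Wnt. The groups did not overlap in 4 of the 76 genes: Ctbp1 and Dvl1 (higher; 1.38% of all probe sets), and Csnk1a1 and Bambi (lower; 1.78%). Dvl1, Csnk1a1, Bambi, Tspan12 and Reck are named after their values were seen.

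**Figure D4:**
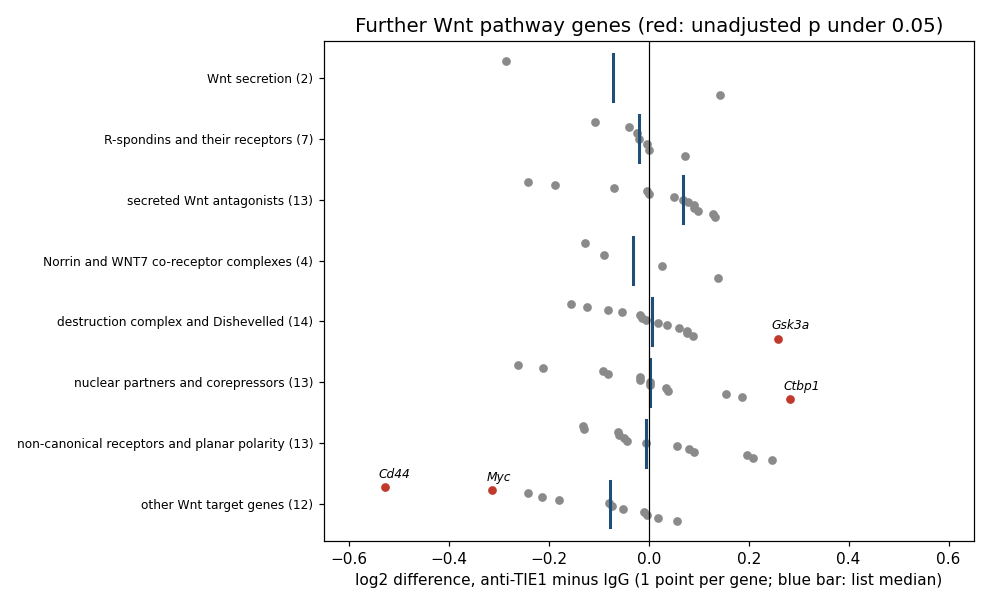
Log2 difference, anti-TIE1 minus IgG, of the 76 further pathway genes, 1 point per gene in 8 lists (number of measured genes in parentheses, 2 genes standing in 2 lists); blue bars are list medians and red points the genes at an unadjusted p under 0.05. Points lie on both sides of 0 in every list. Among the other target genes 10 of 12 lie below it, where 48.3% of all probe sets lie above. Gsk3a and Ctbp1 stand at 0.26 and 0.28 on the right and Cd44 and Myc at -0.53 and -0.31 on the left.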

How the data were processed

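RNA of sorted lung EC from 8 mice, 4 per treatment, was hybridized to 1 mouse Clariom S array each. The authors deposited linear intensity values, 1 per probe set and array, normalized between arrays by a method not given in the sources used here. Log2 of these values was taken, with no other normalization. Symbols come from the platform annotation. Each of 22202 probe sets with values on all 8 arrays, controls left out, was fitted with limma 3.58.1 in R 4.3.3 (lmFit, eBayes, anti-TIE1 minus IgG, Benjamini-Hochberg adjustment over all). This procedure was tested on simulated independent arrays, with added changes larger than any measured in a member. Changes of the size measured in members were not simulated. The number of arrays limits precision. Exact two-sided permutation tests ran over 70 arrangements of the arrays.

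Members and lists were chosen with earlier results of these data known. All 8 values are given for members at an unadjusted p under 0.05, with groups that do not overlap or with a mean level in the top 25% of probe sets (8.55 or more), and for Axin2, Lef1, Apcdd1 and Nkd1. Fzd8 and the use of background controls were chosen after values were seen. Of each further list, genes at an unadjusted p under 0.05 and up to 2 with the smallest p are named. Alternatives covered normalization, a level filter, the variance model, array weights, a pseudocount, blocks, an exact Mann-Whitney test, the summary of probe sets and leaving out each array. Promoter windows were searched in Python 3.11.15.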

Additional observations from a re-analysis of the deposited data

Results flagged for a closer look

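In groups of 4 arrays, a single array can lie far from the other 3. The gap of the highest or lowest array to its neighbour, as a share of the group's whole range, was past Dixon's critical value for 4 values in 9 of 84 groups of members. Chance flags about 5% of groups, 1 in 20. How many groups of all probe sets are flagged was not counted, so the count of members has no share on these arrays to be read against. Among the ligands, Wnt10a was lowest on IgG array 4 (7.35 against 7.59 to 7.63, ratio 0.86), Wnt10b on IgG array 2 (6.89 against 7.16 to 7.22, ratio 0.838) and Wnt3a on IgG array 1 (6.73 against 7.06 to 7.11, ratio 0.868). Wnt7b was highest on IgG array 3 (7.24 against 6.84 to 6.90, ratio 0.856).

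Among the receptors, Fzd1 was lowest on IgG array 3 (7.51 against 7.92 to 7.95, ratio 0.932) and highest on anti-TIE1 array 1 (7.95 against 7.67 to 7.69, ratio 0.926). Fzd9 was highest on IgG array 3 (7.67 against 6.95 to 7.00, ratio 0.929). Fzd6 was highest on anti-TIE1 array 2 (9.90 against 9.72 to 9.74, ratio 0.904) and Lrp5 on IgG array 2 (10.58 against 10.52 to 10.53, ratio 0.894). IgG array 3 stood apart in 3 of these 9 groups. The causes were not tested.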

How the results depend on the processing

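No member passed an adjusted p under 0.05 under any of 20 other settings. The exact Mann-Whitney test cannot give a p under 0.0286 with all arrays, so an adjusted p under 0.05 was hardly within its reach. The difference kept its sign under all of these settings in 22 members and changed sign under at least 1 in 20. The variance model, the level filter, the balanced blocks and the Mann-Whitney test leave a member's difference unchanged, so they are no check of its sign. An unadjusted p under 0.05 was reached under at least 1 setting by 11 members, 9 of them with 1 array left out. How many of all probe sets reach it under at least 1 setting was not counted, so these counts have no share to be read against. Wnt8a reached it under every setting that measured it. With only probe sets at or above the median level, Wnt1, Wnt2 and Wnt8a are left out, so the counts at an unadjusted p under 0.05 were 0 higher and 0 lower, those without overlap 0 higher and 0 lower, with 0 further pathway genes lower. With quantile normalization, and with median centring, 2 members were lower without overlap (1.62% and 1.54% of all probe sets). Under both, 1 pathway gene was lower at an unadjusted p (2.86% and 2.8%), Myc being the one lost. With array weights 4 pathway genes were lower (3.6% of all probe sets). The exact Mann-Whitney test left 1 lower member (1.78% of all probe sets).

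In 1 check the replicate numbers did not pair the arrays. Each value was taken as its deviation from the group mean of its probe set. Over all probe sets, correlations between same-numbered arrays then ran from -0.05 to 0.00658. No IgG array correlated best with the anti-TIE1 array of its own number, and the reverse was not checked. With the replicate number as a block, 2 members were higher and 4 pathway genes lower at an unadjusted p under 0.05 (2.06% and 3.08% of all probe sets). Within the arrays of low hybridization controls, 6 members were higher and 9 lower without overlap, 2 against 2 arrays (14.3% and 21.4%, against 16.3% and 20% of all probe sets). Within those of high controls 8 were higher and 5 lower without overlap (19% and 11.9%, against 15.8% and 16.8%), 2 higher and 1 lower at an unadjusted p (2.28% and 2.48% of all probe sets), and 4 pathway genes higher and 0 lower. The causes were not tested.

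Leaving out 1 array at a time gave 1 to 2 members higher and 1 to 3 lower at an unadjusted p, 1 to 3 higher and 1 to 2 lower without overlap, where 2% to 2.47%, 2.67% to 3.62%, 2.41% to 3.04% and 2.79% to 4.01% of all probe sets were, and 1 to 4 pathway genes higher and 1 to 3 lower. The low-intensity members are limited by signal over background: 25 of 42 never exceeded the brightest background control, a strict limit, and a value under it does not show that the RNA was absent.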
